A study of Mus musculus with 15 samples.

Results

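The genes described here are 48 members of the mouse Wnt pathway, chosen by role: 19 Wnt ligands, 10 Frizzled receptors, 4 Lrp and Ror co-receptors, 7 R-spondins and Lgr receptors, 4 genes of the destruction complex and beta-catenin, and 4 Tcf/Lef factors. A gene counted as measured when at least 3 autosomal CpGs within 1 kb of any of its annotated start sites had 10 or more reads in all 15 libraries. This held for 39 of the 48 genes, with 552 CpGs in all, among 12074 promoters measured in the same way. "Promoter level" below is the share of reads, in percent, that were methylated over those CpGs of a gene, and differences are in percentage points.

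The libraries are reduced representation bisulfite sequencing of sorted mouse bone marrow progenitors, a method that reads CpG methylation mostly in CpG-rich DNA cut at CCGG sites. Bisulfite does not separate 5-methylcytosine from 5-hydroxymethylcytosine. Granulocyte-macrophage progenitors (GMPs) were sorted as Lin-cKit+, Sca1-, CD34+, Cd16/32+ cells and megakaryocyte-erythroid progenitors (MEPs) as Lin-cKit+, Sca1-, CD34-, Cd16/32- cells, all from C57BL/6 mice whose ages the labels do not give. The wild type animals were Mx1-cre+;Dnmt3af/f, so both floxed alleles and the recombinase were present, and the labels call them wild type. The knockout was Mx1-cre+;Dnmt3a-/-. The Idh2 mutant was Mx1-cre-;Dnmt3af/f;Idh2 R140Q, without the recombinase that the other groups carry. Each of these 3 genotypes gave 2 GMP and 2 MEP libraries. The double mutant, Mx1-cre+;Dnmt3a-/-;Idh2 R140Q, gave 3 libraries, labelled malignant hematopoietic stem and progenitor cells and sorted with the MEP markers. The double mutant therefore differed from the MEP groups in disease state as well as in genotype, and these cannot be told apart. Mx1-cre is driven by an interferon-inducible promoter that is also active outside blood. The labels name the libraries biological replicates without saying whether they came from separate animals, so p-values measure the spread between these samples, which may be in part technical.

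Wnt ligands are secreted lipid-modified proteins that bind Frizzled receptors together with Lrp5 or Lrp6. Without ligand, a complex built on Axin and Apc marks beta-catenin for degradation, and with ligand beta-catenin accumulates and acts on target genes through Tcf/Lef factors. Ror2 with Wnt5a works largely without beta-catenin, and R-spondins, through Lgr receptors, raise the amount of Frizzled at the cell surface. In blood the pathway is known for its part in stem cell self-renewal and in myeloid leukemia. Dnmt3a is a de novo DNA methyltransferase, and Idh2 R140Q makes 2-hydroxyglutarate, an inhibitor of the TET enzymes that oxidise 5-methylcytosine.

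Stretches with 4 or more measured CpGs are shown here for Fzd10, Wnt3a, Wnt5a and Ror2, which rose in the double mutant, and for Lrp5, in mm9, read 5′ to 3′ on the strand of the gene, with measured CpGs in capitals. They do not hold every CpG that changed, and the Fzd10 CpG with the largest gain lies outside them. The first pair lies upstream of Fzd10 (plus strand), at chr5:129105943-129106077 and chr5:129106236-129106359.
Fzd10, far upstream: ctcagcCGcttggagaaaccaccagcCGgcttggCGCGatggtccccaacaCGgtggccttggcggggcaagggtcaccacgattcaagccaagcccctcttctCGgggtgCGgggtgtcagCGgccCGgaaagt
Fzd10, nearer the start: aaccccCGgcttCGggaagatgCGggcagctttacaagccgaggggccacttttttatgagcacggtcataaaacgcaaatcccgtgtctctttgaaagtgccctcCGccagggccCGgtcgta
The 9 CpGs of the first stretch averaged 4.84% in wild type MEPs and 37.9% in the double mutant, and the 5 CpGs of the second averaged 6.53% and 52.9%. The next stretch lies in the first intron of Wnt3a (minus strand) at chr11:59103899-59104067, where 8 CpGs averaged 5.20% and 28.0%.
Wnt3a, intron: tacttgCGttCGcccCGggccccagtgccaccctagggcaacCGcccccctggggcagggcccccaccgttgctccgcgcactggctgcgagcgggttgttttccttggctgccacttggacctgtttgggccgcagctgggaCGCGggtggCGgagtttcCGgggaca
All 15 measured CpGs of Wnt5a (plus strand), weighted equally, averaged 16.1% in wild type MEPs and 36.1% in the double mutant. An intron stretch of this gene at chr14:29319707-29319830 holds 4 CpGs that averaged 1.85% and 39.3%.
Wnt5a, intron: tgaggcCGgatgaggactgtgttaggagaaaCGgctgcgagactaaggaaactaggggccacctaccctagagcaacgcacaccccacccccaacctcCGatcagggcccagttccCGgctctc
A coding stretch of Ror2 (minus strand) at chr13:53381172-53381207 holds 5 CpGs that averaged 3.08% and 39.9%, and a coding stretch of Lrp5 (minus strand) at chr19:3686392-3686430 holds 7 that averaged 9.31% and 9.18%.
Ror2, coding: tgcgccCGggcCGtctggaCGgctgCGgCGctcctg
Lrp5, coding: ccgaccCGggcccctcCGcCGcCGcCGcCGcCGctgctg
The Lrp5 stretch is shown because its first CpG, 141 bp past the start, was at 65.2% in wild type MEPs while the others in it were near 0 in every group, which bears on how the level of that gene is read below.

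The libraries held 19306705 to 35204906 reads over CpGs, with a median of 30 to 51 reads at the 241527 CpGs covered in all 15. Each wild type and double mutant library held 28001420 reads or more, and each knockout and Idh2 mutant library 26086791 or fewer. Comparisons of the single mutants with wild type or the double mutant therefore also differ in read number, and its part was not tested. Reads on the X chromosome were 2.21% to 2.25% of autosomal reads in the 4 wild type libraries and 1.17% to 1.47% in the 11 others. Y reads per autosomal read were fewer in each wild type library than in any of the 11 others, so the wild type libraries differed from the rest in sex chromosome content as well as genotype, and these cannot be told apart. Of mitochondrial CpG reads, which are taken to be unmethylated, 0.280% to 3.27% read as methylated, and 0.912% to 1.56% in the double mutant. Wild type and double mutant libraries also placed their reads on some promoters differently from the knockout and Idh2 mutant libraries. Shares of reads are given below for Lrp5, Lgr5 and Wnt9b, and not for the other members.

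Some promoters of Wnt genes were more methylated in the double mutant than in each MEP group, and no member was called in the other direction. Against wild type MEPs 10 of the 39 members rose by 10 points or more at an adjusted p under 0.05 (quasi-binomial model, Benjamini-Hochberg over all promoters), and none fell: Fzd10, Wnt3a, Wnt10a, Ror2, Fzd8, Wnt9b, Axin2, Wnt5a, Rspo2 and Wnt4. Over all promoters 11.4% rose and 0.522% fell in this comparison. The median member difference was 5.27 points, beside 0.267 over all promoters, and 36 of the 39 differences were above 0. With the compared groups alone in the fit, the calls of Wnt10a, Wnt5a, Axin2 and Rspo2 were lost (quasi-binomial adjusted p = 0.0597, 0.0891, 0.0501 and 0.0724). Averaged over the 39 members, the promoter level was 14.3% ± 1.44 (SD, n = 3) in the double mutant and 5.98% ± 0.0805 (SD, n = 2) in wild type MEPs, while the mean over all promoters was 13.98% and 10.4%. Knockout MEPs averaged 4.98% ± 0.524 and Idh2 mutant MEPs 6.10% ± 0.193 over the members (SD, n = 2 each). The 3 double mutant libraries lay above all 12 others at 19 of the 39 members, and at 14.8% of all promoters.

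**Figure D1:**
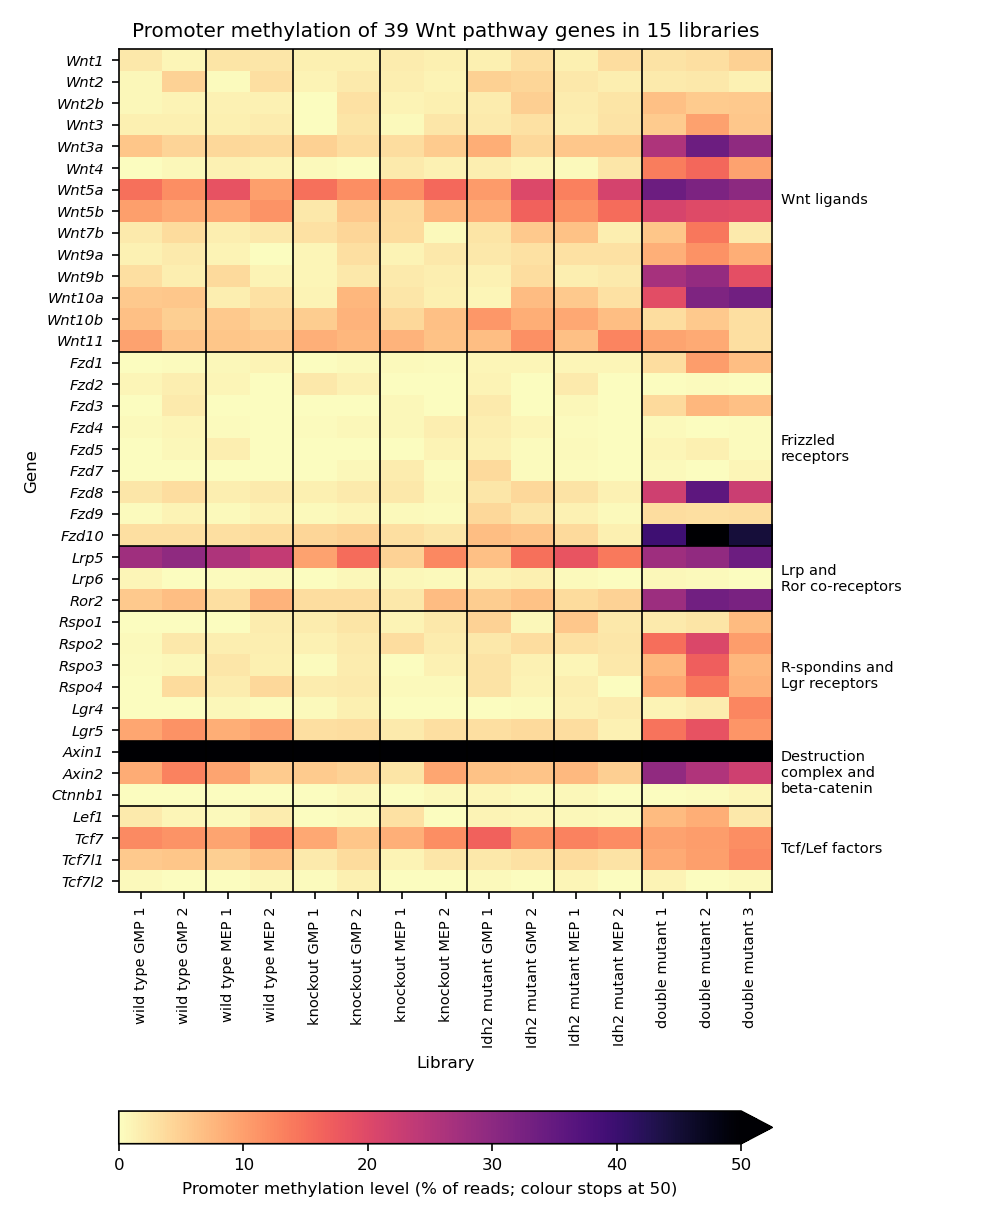
Promoter methylation level (colour, % of reads, stopping at 50%) of the 39 measured genes (lines, grouped by role) in the 15 libraries (columns, grouped by genotype and cell type). The 3 double mutant columns are darker for Wnt3a, Wnt9b, Wnt10a, Fzd8, Fzd10 and Ror2, while Axin1 is at 92.0% or more throughout.

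The double mutant was also compared with each single mutant. Against knockout MEPs 13 of the 39 members rose and none fell, beside 13.6% rising and 0.837% falling among all promoters. These were the same 10 genes with Lgr5, Lrp5 and Wnt5b. Against Idh2 mutant MEPs 12 of the 39 rose and none fell, beside 11.1% rising and 1.59% falling among all promoters, namely the same 10 with Lgr5 and Lrp5. With the compared groups alone in the fit, the calls of Axin2, Rspo2, Lgr5 and Lrp5 against knockout MEPs were lost, as were those of Fzd8, Wnt4, Wnt5a, Wnt10a, Rspo2, Lgr5 and Lrp5 against Idh2 mutant MEPs. These 3 comparisons share the double mutant libraries and are not independent. Among the 7 groups as a whole 14 of the 39 members differed, beside 15.1% of all promoters; the additional gene there was Rspo3.

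**Figure D2:**
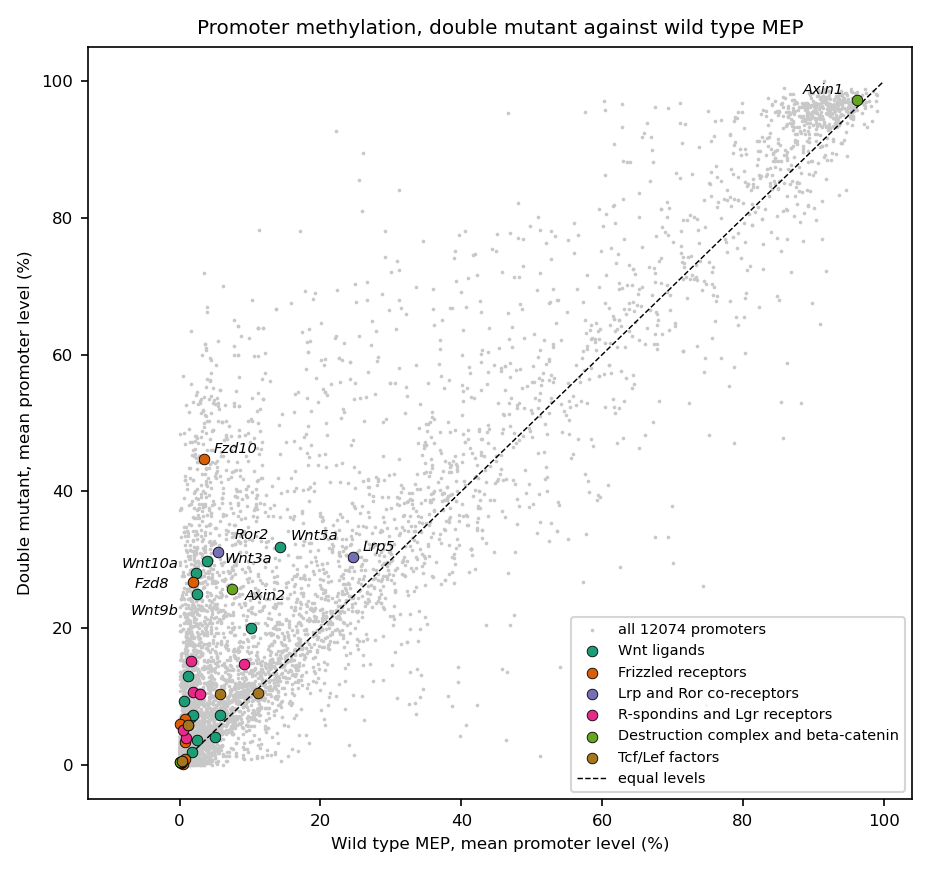
Mean promoter level (%) in wild type MEPs (x axis, n = 2) against the double mutant (y axis, n = 3), with all 12074 promoters in grey and the 39 Wnt genes coloured by role. The risen members lie at the left edge, above the dashed line of equal levels, and Fzd10 is highest among them at 44.7%.

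Of the 14 measured ligands, 5 rose against wild type MEPs and none fell. Wnt3a, a ligand of the beta-catenin branch (ENSMUSG00000009900, minus strand, chr11:59061535-59104254), was at 4.04% and 3.89% in the 2 wild type MEP libraries. It stood at 3.39% and 5.29% in knockout MEPs, at 5.78% and 5.72% in Idh2 mutant MEPs, and at 25.9%, 33.8% and 29.7% in the double mutant. The GMP libraries ranged from 3.49% to 8.52%, so the double mutant overlapped with no other library. The difference from wild type MEPs was 25.8 points (quasi-binomial adjusted p = 1.33e-05), from knockout MEPs 25.4 and from Idh2 mutant MEPs 24.0. All 13 measured CpGs of Wnt3a lie in its intron, and 10 of them were 10 points or more higher in the double mutant than in wild type MEPs.

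Wnt10a, another ligand of the beta-catenin branch (chr1:74838090-74850753, plus strand), was at 1.65% and 3.09% in wild type MEPs and at 19.3%, 31.7% and 33.3% in the double mutant. The other 10 libraries lay between 0.917% and 7.53%, without overlap. The difference of 25.8 points (quasi-binomial adjusted p = 0.00283) rests on 4 CpGs of the untranslated first exon and 53 to 166 reads per library, the fewest among the risen members. Its 23.8-point difference from Idh2 mutant MEPs was no longer called without Idh2 mutant MEP replicate 2 (adjusted p = 0.0590). Wnt9b, a ligand of kidney and facial development (chr11:103588678-103611135, minus strand), was at 3.84% and 1.08% in wild type MEPs. It was at 26.8%, 29.1% and 19.05% in the double mutant and at 3.38% or less in the other 10 libraries. The difference was 22.5 points (quasi-binomial adjusted p = 9.13e-05) and was 13.4 with each CpG weighted equally (limma adjusted p = 0.00183). A single intron CpG, 332 bp past the start, held 33.8% of the Wnt9b reads in the double mutant and 25.1% in wild type MEPs. Its level went from 5.42% in wild type MEPs to 48.8% in the double mutant, while the other 7 CpGs averaged 1.49% and 12.9%. In knockout and Idh2 mutant MEPs this intron CpG held 18.6% and 18.3% of the reads, at levels of 8.30% and 9.64%.

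Wnt5a, the main ligand of the branch without beta-catenin (chr14:29317936-29340633, plus strand, 6 start sites), started higher. Wild type MEPs were at 18.4% and 10.03%, knockout MEPs at 11.6% and 15.8%, and Idh2 mutant MEPs at 13.1% and 21.1%. The double mutant was at 33.8%, 32.0% and 30.01%, above all of these and above the GMP libraries at 10.4% to 20.2%. The 17.7-point difference from wild type MEPs (quasi-binomial adjusted p = 0.00721) was lost when wild type MEP replicate 2 was left out (adjusted p = 0.0976), the one from knockout MEPs without knockout MEP replicate 1 (adjusted p = 0.0827), and the 14.8-point difference from Idh2 mutant MEPs (adjusted p = 0.0441) without any 1 of 11 libraries. With 20 reads per CpG the difference from wild type MEPs was 7.66 and that from Idh2 mutant MEPs 9.35, neither called. With limma on log2 values none of the 3 Wnt5a differences was called (adjusted p = 0.0884, 0.0712 and 0.201 against wild type, knockout and Idh2 mutant), and with the replicate block the one from Idh2 mutant MEPs was not (adjusted p = 0.137). Single CpGs of Wnt5a moved in both directions. At 652 bp past a start site the level went from 0% in wild type MEPs to 68.1% in the double mutant, while at 740 bp before a start site it went from 50.8% to 13.9%. The Wnt5a CpGs also lie near the start of Gm2670, and the reads cannot be assigned to one of these genes.

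Wnt4, a ligand of kidney and reproductive tract development (chr4:136833404-136855641, plus strand), was at 1.37% and 1.11% in wild type MEPs and at 13.5%, 15.9% and 9.68% in the double mutant. No other library was above 2.51%. Its 11.8-point difference (quasi-binomial adjusted p = 0.000425) includes an intron CpG 583 bp past the start that went from 3.94% to 47.8%, and with CpGs within 500 bp of the start alone the difference was 9.56, under the minimum. Wnt5b, a close relative of Wnt5a, was at 9.06% and 11.3% in wild type MEPs, 3.78% and 7.73% in knockout MEPs, 11.5% and 15.3% in Idh2 mutant MEPs and 20.9%, 19.8% and 19.5% in the double mutant. Of the single comparisons it was called only against knockout MEPs, by 14.3 points (quasi-binomial adjusted p = 0.000859), and it was also called over all 7 groups (adjusted p = 0.00378). It was 9.91 points above wild type MEPs, just under the minimum difference, at an adjusted p of 0.00875. With each CpG weighted equally the difference from knockout MEPs was 9.83.

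Of the remaining ligands, Wnt2b, Wnt3 and Wnt9a were 4.60, 5.27 and 8.78 points above wild type MEPs at adjusted p-values of 0.00768, 0.0301 and 0.000351, below the minimum difference, and their 3 double mutant libraries lay above all 12 others. Wnt7b was at 5.94%, 14.1% and 1.96% in the double mutant, with a spread that reached into the other groups. Wnt1, Wnt2, Wnt10b and Wnt11 differed from wild type MEPs by 1.52 points or less in either direction, and none of these passed the test.

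**Figure D3:**
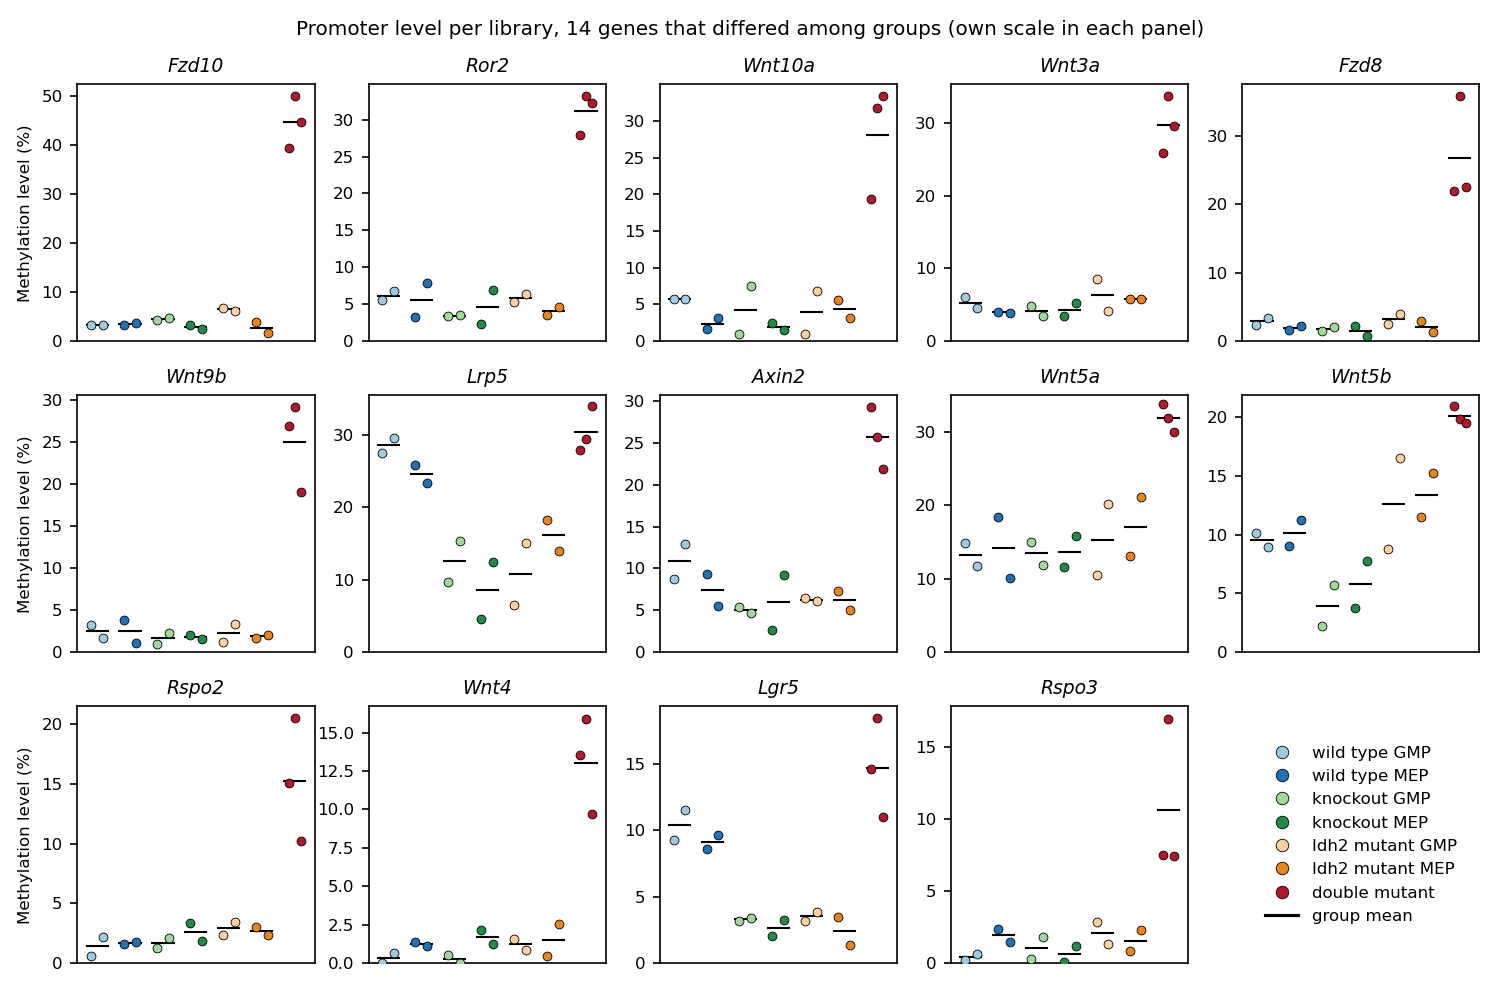
Promoter level (%) of each library (points, coloured by group) and group mean (bars) for the 14 genes that differed among the 7 groups, each on its own scale from 0. In 12 panels all 3 double mutant libraries lie above the 12 others, while in Lrp5 and Lgr5 the wild type libraries lie near the double mutant.

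Of the 9 measured Frizzled receptors, 2 rose and none fell against wild type MEPs. Fzd10 (ENSMUSG00000081683, chr5:129106719-129109968, plus strand) showed the largest difference of any member. Its promoter was at 3.23% and 3.62% in wild type MEPs, 3.30% and 2.44% in knockout MEPs, and 3.80% and 1.54% in Idh2 mutant MEPs. The double mutant was at 39.5%, 50% and 44.7%, and the highest of the 12 other libraries, an Idh2 mutant GMP library, was at 6.68%. The difference was 41.3 points from wild type MEPs, 41.9 from knockout MEPs and 42.1 from Idh2 mutant MEPs (quasi-binomial adjusted p = 1.39e-06, 1.35e-06 and 1.82e-06). Fzd10 also had the most CpGs of all members, 28, and 25 of them were 10 points or more higher in the double mutant than in wild type MEPs. The gain spanned the measured stretch from 770 bp before to 608 bp after the start. It reached 87.5%, from 0%, at 137 bp past the start and was least at 672 bp before it, where the level went from 4.93% to 10.6%. The same CpGs lie near the start of 5930412G12Rik.

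Fzd8, a receptor encoded by a single coding exon on chromosome 18, was at 1.57% and 2.15% in wild type MEPs. The double mutant was at 22.0%, 35.8% and 22.5%, against 3.96% or less in every other library. The difference was 24.9 points (quasi-binomial adjusted p = 6.14e-05), and 12 of its 15 CpGs, 13 of which lie in the coding exon, were 10 points or more higher. Fzd1 and Fzd3 were 5.93 and 5.97 points above wild type MEPs (adjusted p = 0.00365 and 0.00549), and Fzd9 2.49 points (adjusted p = 0.00384), all under the minimum difference. At Fzd9 the double mutant, at 3.15% to 3.46%, overlapped with the Idh2 mutant GMP libraries at 3.96% and 2.53%. For Fzd1, which had 26 CpGs, the double mutant libraries were at 3.39%, 10.3% and 6.65% and all others at 1.10% or less. Fzd2, Fzd4, Fzd5 and Fzd7 were at 1.37% or less in the double mutant, and no difference passed the test. The Fzd4 CpGs are shared with Tmem135.

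**Figure D4:**
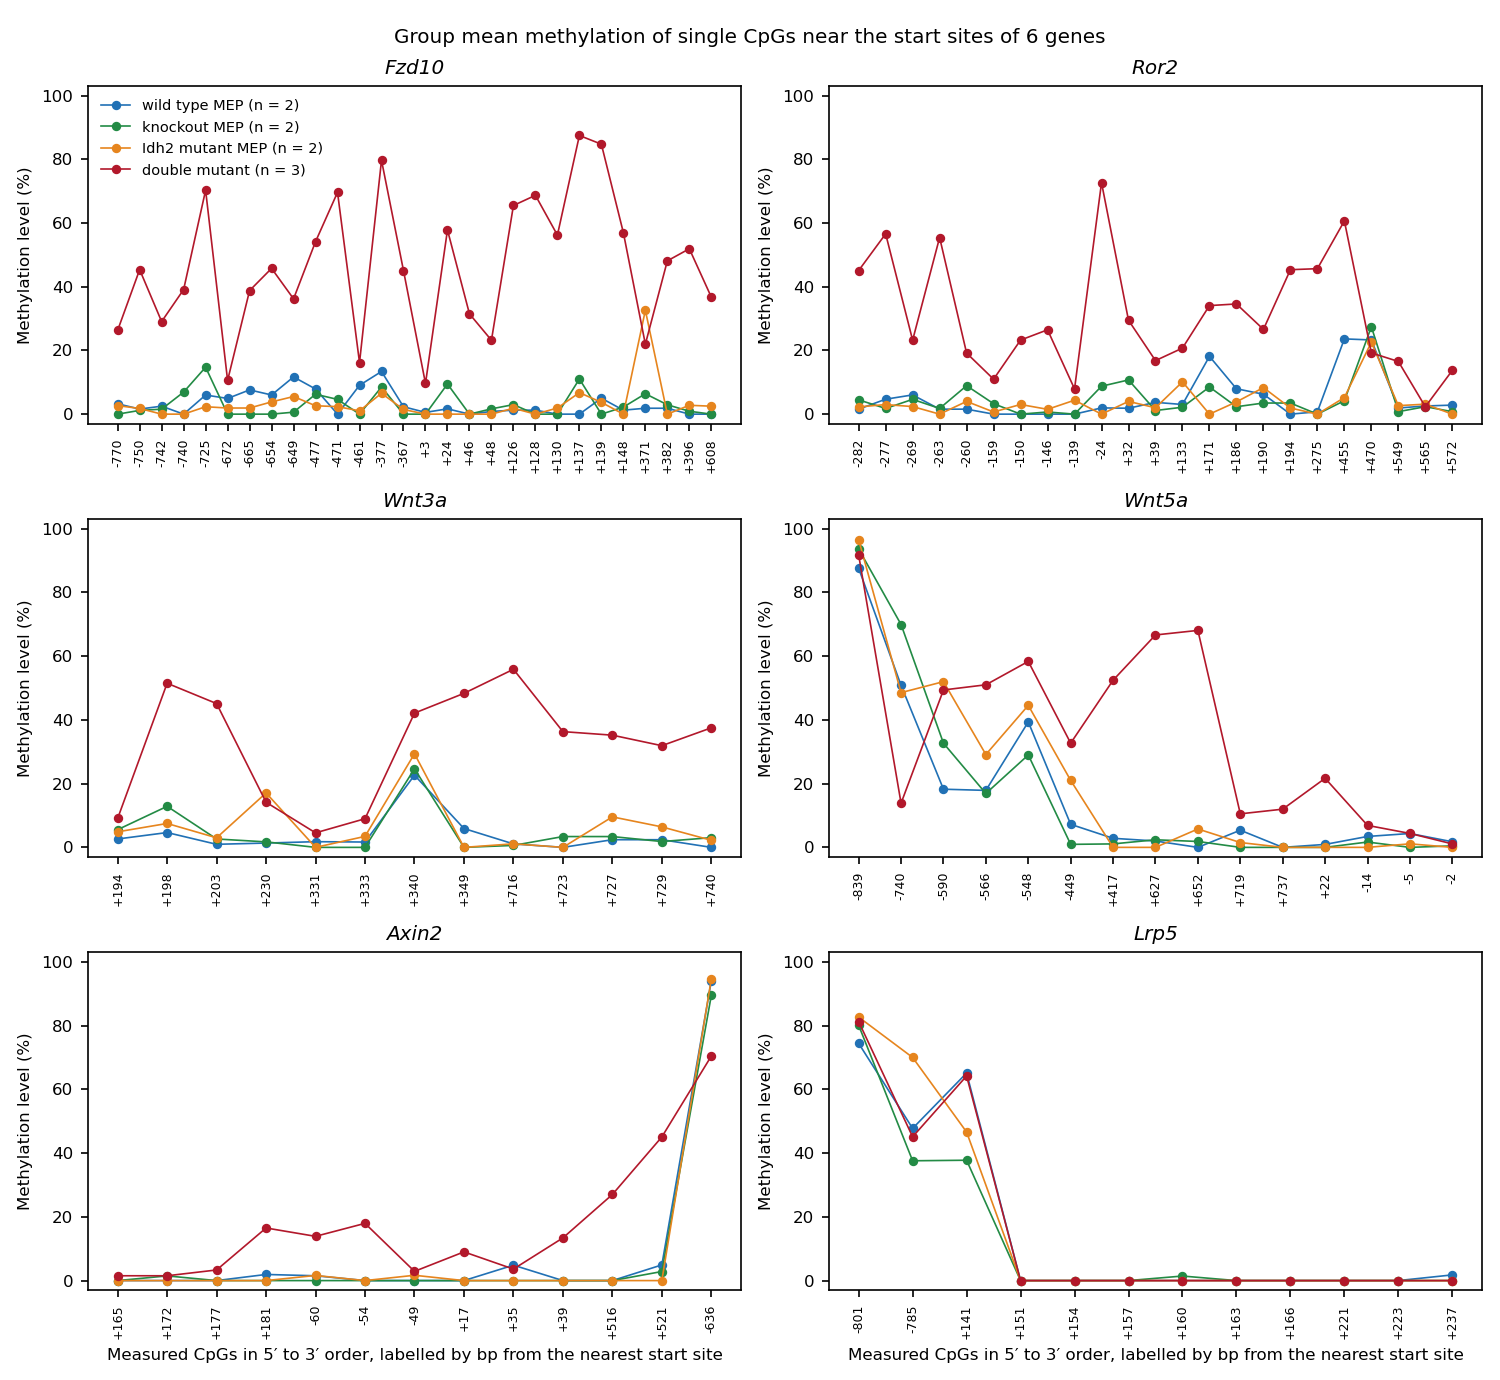
Mean methylation (%) of each measured CpG in wild type, knockout and Idh2 mutant MEPs (n = 2 each) and the double mutant (n = 3) for 6 genes, in 5′ to 3′ order and labelled by distance in bp from the nearest start site. The double mutant line runs above the others over most CpGs of Fzd10, Ror2 and Wnt3a, over part of Wnt5a and Axin2, and lies with the others in Lrp5.

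Among the 3 measured co-receptors, Ror2, a receptor tyrosine kinase for Wnt5a (ENSMUSG00000021464, chr13:53204681-53381493, minus strand), rose. It was at 3.19% and 7.82% in wild type MEPs, 2.33% and 6.85% in knockout MEPs, and 3.57% and 4.56% in Idh2 mutant MEPs, against 28.0%, 33.2% and 32.3% in the double mutant. The double mutant overlapped with no other library, and the GMP libraries were at 6.81% or less. The difference from wild type MEPs was 25.7 points (quasi-binomial adjusted p = 8.96e-05), 26.6 from knockout and 27.1 from Idh2 mutant MEPs. Of its 23 CpGs, 7 in coding exon and 16 in introns, 20 were 10 points or more higher, and the level 24 bp before a start site went from 1.96% to 72.7%. Lrp6, the relative of Lrp5, was at 1.49% or less in every library.

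Lrp5, which pairs with Frizzled receptors in the beta-catenin branch (chr19:3584825-3686564, minus strand), differed in another way. Its pooled level was 27.5% and 29.6% in wild type GMPs, 25.8% and 23.4% in wild type MEPs and 27.8%, 29.4% and 33.9% in the double mutant. It was 9.67% and 15.3% in knockout GMPs, 4.60% and 12.4% in knockout MEPs, 6.48% and 15.02% in Idh2 mutant GMPs and 18.2% and 13.996% in Idh2 mutant MEPs. The single mutants thus lay below wild type and double mutant without overlap. It was the only member called between single mutants and wild type, 16.1 points lower in the knockout and 13.1 lower in the Idh2 mutant (quasi-binomial adjusted p = 0.0323 and 0.0376). The knockout call was lost without any 1 of 10 libraries and the Idh2 mutant call without any 1 of 12. Where the reads fell on Lrp5 also differed between the groups. Of its 12 CpGs, 3 were methylated, at 801 and 785 bp before and 141 bp after the start, and they held 40.7% of the Lrp5 reads in wild type MEPs, 49.1% in wild type GMPs and 49.8% in the double mutant, but 16.8% and 24.0% in knockout MEPs and GMPs and 24.4% and 16.9% in Idh2 mutant MEPs and GMPs. The level at these 3 CpGs was 60.1% in wild type MEPs, 46.9% in knockout MEPs, 65.6% in Idh2 mutant MEPs and 61.3% in the double mutant. In GMPs it was 58.5% in wild type, 51.0% in the knockout and 53.0% in the Idh2 mutant, and the other 9 averaged 1.47% or less in every group. With each CpG weighted equally Lrp5 was 2.81 points lower in the knockout than in wild type and 0.814 points higher in the Idh2 mutant, and neither passed the test (limma adjusted p = 0.63 and 0.836). The 21.9-point difference between double mutant and knockout MEPs was 2.81 on that measure, and the 14.3-point difference from Idh2 mutant MEPs was -0.727 (limma adjusted p = 0.317 and 0.98).

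Of the 6 measured R-spondins and Lgr receptors, Rspo2 rose against wild type MEPs. Rspo2, a secreted enhancer of Wnt signalling (chr15:42852357-43002364, minus strand), was at 1.59% and 1.75% in wild type MEPs and at 15.1%, 20.5% and 10.2% in the double mutant, with the other 10 libraries at 3.45% or less. Its 13.6-point difference (quasi-binomial adjusted p = 0.000759) rests on 7 CpGs of the untranslated first exon; that from Idh2 mutant MEPs, 12.6, was 9.96 without double mutant replicate 2, under the minimum difference. Rspo3 was at 7.48%, 16.9% and 7.45% in the double mutant and at 2.84% or less elsewhere. It was 8.70 points above wild type MEPs (quasi-binomial adjusted p = 0.0157), under the minimum difference, and was called only over all 7 groups. Rspo4, with 4 CpGs, was at 9%, 14.1% and 8.06% in the double mutant and at 4.03% or less elsewhere, a difference of 7.43 points (adjusted p = 0.0397).

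Lgr5, a receptor for R-spondins that marks stem cells of the gut (chr10:114887367-115024836, minus strand), was at 8.56% and 9.66% in wild type MEPs and at 14.6%, 18.5% and 11.0% in the double mutant. Knockout MEPs were at 2.06% and 3.21% and Idh2 mutant MEPs at 3.43% and 1.34%. It was called against knockout and Idh2 mutant MEPs, by 12.1 and 12.3 points (quasi-binomial adjusted p = 0.000662 and 0.000562), and not against wild type MEPs (5.59 points, adjusted p = 0.0894). Over GMP and MEP together Lgr5 was also lower than wild type in both single mutants. The differences were -6.78 points in the knockout and -6.79 in the Idh2 mutant (quasi-binomial adjusted p = 0.0327 and 0.0171), under the minimum difference. With each CpG weighted equally Lgr5 was at 5.15% and 4.21% in wild type GMPs and MEPs. On that measure it was at 2.44% and 2.42% in the knockout and at 4.24% and 2.48% in the Idh2 mutant. Its 2 CpGs upstream of the start held 33.9% of the Lgr5 reads in wild type MEPs and 31.8% in the double mutant, but 16.0% in knockout and 15.04% in Idh2 mutant MEPs. The level at these 2 CpGs was 26.7% in wild type MEPs, 32.3% in the double mutant, 12.9% in knockout MEPs and 10.3% in Idh2 mutant MEPs. The other 10 CpGs averaged 0.127% in wild type MEPs, 6.53% in the double mutant, 0.571% in knockout and 0.984% in Idh2 mutant MEPs. With each CpG weighted equally the double mutant differences from knockout and Idh2 mutant MEPs were 7.18 and 7.12 points, under the minimum. Lgr4 was at 1.08%, 1.77% and 12.6% in the double mutant, so that 1 library stood apart, and Rspo1 at 2.14%, 2.72% and 7.07%.

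Among the destruction complex and beta-catenin, Axin2 rose. Axin2, a scaffold of the complex and itself a widely used target gene of the pathway (chr11:108781663-108812097, plus strand, 7 start sites), was at 9.38% and 5.47% in wild type MEPs, 2.65% and 9.21% in knockout MEPs and 7.32% and 5.06% in Idh2 mutant MEPs. It was at 29.4%, 25.8% and 22.0% in the double mutant, above all other libraries, the highest of which was a wild type GMP library at 12.9%. The difference from wild type MEPs was 18.3 points (quasi-binomial adjusted p = 0.00203) and was 9.15 with each CpG weighted equally; with CpGs within 500 bp of a start site alone it was 7.42, also under the minimum. A coding CpG 636 bp before a start site went the other way, from 94.1% to 70.5%, mostly through double mutant replicate 3. That CpG was at 88.2% and 100% in wild type MEPs and at 85%, 94% and 32.4% in the double mutant. Without it the pooled level of the other 12 CpGs was 1.45% in wild type MEPs and 20.3% in the double mutant, with the largest gain, from 4.92% to 45.1%, in an intron 521 bp past a start site. Axin2 shares these CpGs with Gm11670.

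Axin1, the other scaffold, was at 92.0% to 98.8% in every library, by 4 CpGs, 3 of them coding. Ctnnb1, which encodes beta-catenin and had 23 CpGs, was at 0.91% or less in every library. No Ctnnb1 difference passed the test.

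None of the 4 Tcf/Lef factors rose by the minimum. Tcf7l1, which acts mostly as a repressor, was at 8.80%, 10.03% and 12.5% in the double mutant and at 6.42% or less in all other libraries. It was 4.69 points above wild type MEPs and 8.73 above knockout MEPs (quasi-binomial adjusted p = 0.0448 and 0.000113), under the minimum difference. With each CpG weighted equally Tcf7l1 was at 9.09% in the double mutant, 5.69% in wild type MEPs and 5.63% in knockout MEPs. Its CpGs are shared with Gm15401. Lef1 was 4.73 points above wild type MEPs (adjusted p = 0.0415) with double mutant libraries at 7.04%, 8.45% and 2.16%. Tcf7, which is needed for early T cell development, was at 9.77%, 10.2% and 11.8% in the double mutant and 9.39% and 13.0% in wild type MEPs. Tcf7l2 was at 1.55% or less throughout.

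Few members were called between the single mutants and wild type. Over GMP and MEP together 1 of 39 members was called in the knockout and 1 of 39 in the Idh2 mutant, in both cases Lrp5, beside 0.497% and 0.456% of all promoters called lower. Below the minimum difference, Lgr5 was lower in both single mutants, as given above, and Tcf7l1 differed by -3.46 points in the knockout (quasi-binomial adjusted p = 0.0364). With each CpG weighted equally Tcf7l1 was at 5.42% and 5.63% in knockout GMPs and MEPs, beside 5.17% and 5.69% in wild type. No member was called higher in either single mutant, beside 0.248% and 1.19% of all promoters. The median member difference from wild type was -0.233 points in the knockout and 0.516 in the Idh2 mutant, beside 0.163 and 0.365 over all promoters. Among the 10 genes that rose in the double mutant over wild type MEPs, the differences from wild type ranged from -3.66 to 0.587 points in the knockout and from -2.89 to 2.44 in the Idh2 mutant, and none passed the test. No member differed between MEP and GMP (0 of 39, beside 0.0248% of all promoters, with 2 members at an unadjusted p under 0.05), and neither single-mutant effect differed between the cell types at any member (0 of 39 for each, beside 0.0% of all promoters, with 1 and 2 members at an unadjusted p under 0.05). Both limma fits also called no member in these 3 comparisons.

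The 10 members that rose were at 1.24% to 14.2% in wild type MEPs. None of the 13 members below 1% in wild type MEPs rose, beside 1.96% of all promoters at that level. Between 1% and 5% the count was 7 of 15, beside 33.2% of all promoters, and between 5% and 20% it was 3 of 9, beside 27.5%. Neither of the 2 members above 20%, Axin1 and Lrp5, rose, beside 10.8% of all promoters. Levels of 10% or more over the 4 wild type libraries were found in Axin1 (94.9%), Lrp5 (26.6%), Wnt5a (13.8%) and Tcf7 (11.4%). Double mutant replicate 2 was the highest of the 3 double mutant libraries in 7 of the 10 risen members and the lowest in none.

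The measured members had more CpG-rich promoters than promoters in general, with a median ratio of observed to chance-level CpGs of 0.652 beside 0.517, and a median of 20 CCGG sites beside 14. The 10 risen members had a ratio of 0.656 and the 29 other measured members 0.642, and both sets ranged widely. The 9 unmeasured members had a median of 12 CCGG sites. These were Wnt6, Wnt7a, Wnt8a, Wnt8b, Wnt16, Fzd6 and Lgr6, without any CpG at this depth near a start site, Ror1 with 2 CpGs and Apc with 1.

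Other genes of the pathway, in lists made by role, were read from the same fit. The counts stand beside 11.4% of all promoters rising and 0.522% falling. Of 12 measured antagonists 3 rose against wild type MEPs and none fell. Sfrp1 binds Wnt ligands outside the cell. It went from 0.952% and 0% in wild type MEPs to 54.7%, 60.1% and 55.7% in the double mutant. This difference of 56.4 points was the largest on these lists. Wif1 and Kremen2 rose by 12.9 and 12.5 points, and Kremen2 rests on 3 CpGs. Of 9 planar polarity and other receptors 3 rose: Celsr3 by 44.2 points, Prickle2 by 36.9 and Vangl1 by 33.2. Of 12 cytoplasmic relay genes Nkd1 rose (13.9 points), and of 11 nuclear cofactors Tle1, a corepressor of Tcf factors, rose (17.7 points). Nkd1 rests on 3 CpGs, with double mutant libraries at 27.3%, 15.3% and 7.2% and a wild type GMP library at 8.51%. Over the 7 groups Nkd1 was not called (quasi-binomial adjusted p = 0.116). Of 7 target genes Sp5, Cdx2 and T rose, by 10.2, 10.1 and 19.5 points, and Cdx1 fell by 19.6. Cdx1 was also called in both single mutants against wild type over GMP and MEP. The differences were -20.1 points in the knockout and 24.2 in the Idh2 mutant (quasi-binomial adjusted p = 0.00454 and 0.00835). Against knockout MEPs the double mutant differed at Cdx1 by 2.42 points, without passing the test (quasi-binomial adjusted p = 0.286). The 1 measured gene of secretion and receptor turnover was not called. Of the cell type marker lists few promoters were measured: 2 of 9 for GMP, 3 of 10 for MEP, 1 of 6 for T and B cells and 1 of 4 for stroma. The MEP marker Itga2b was 14.6 points higher in the double mutant than in wild type MEPs, while Pf4 differed by -3.10 points (adjusted p = 0.0237), under the minimum difference, and Zfpm1 by -0.757 without passing the test. In this comparison the stromal marker Cxcl12 was 10.04 points higher, and the B cell marker Pax5 was 9.54 points higher without a call. The GMP markers Irf8 and Prtn3 did not pass the test in it. Pax5 was called against knockout MEPs, by 13.7 points, and Irf8 over the 7 groups (quasi-binomial adjusted p = 0.0255). Prtn3 differed from Idh2 mutant MEPs by -3.68 points (quasi-binomial adjusted p = 0.00395), under the minimum difference. The part of cell type in the member differences was not tested.

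Away from start sites, 65 windows of 1 kb lay in or within 5 kb of 30 members, with 3 or more CpGs each. Against wild type MEPs 12 of these rose and 1 fell in the double mutant, beside 12.1% and 1.9% of 29251 windows. Against knockout MEPs 11 rose and 3 fell, beside 11.2% and 1.65%, and against Idh2 mutant MEPs 8 rose and 5 fell, beside 10.4% and 3.3%. Wnt5a showed the largest of these differences from wild type MEPs, in an intron window at chr14:29322001-29323000, which was at 10.3% and 8.38% in wild type MEPs and 39.7%, 38.8% and 67.3% in the double mutant (39.3 points, quasi-binomial adjusted p = 0.00455). A coding window of Fzd8 went from 54.2% to 93.2%, an intron window of Wnt7b from 7.71% to 33.0%, a coding window of Fzd1 from 8.92% to 28.5% and an intron window of Axin2 from 75.6% to 95.96%. Those of Wnt5a, Wnt7b and Fzd1 were also called against both single-mutant MEP groups.

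Several windows moved in the single mutants. A window 2333 bp upstream of Wnt10b, at chr15:98610001-98611000, was at 40.4% to 47.1% in the 4 wild type libraries, 4.26% to 28.6% in the 4 knockout libraries and 9.27% to 13.2% in the double mutant. It was the 1 member window called in the knockout, 25.4 points lower (quasi-binomial adjusted p = 0.0396, beside 0.585% of all windows lower and 0.42% higher), and was 35.3 points lower in the double mutant than in wild type MEPs. In the Idh2 mutant 2 windows rose and 1 fell, beside 2.37% and 0.475% of all windows. A coding window of Fzd5 at chr1:64781001-64782000, with 13 CpGs, was at 24.0% to 29.9% in wild type, 51.5% to 58.1% in the Idh2 mutant and 20.2% to 21.7% in the double mutant, so that the double mutant lay 33.9 points below Idh2 mutant MEPs (quasi-binomial adjusted p = 0.000113). An intron window of Wnt5b was also called higher in the Idh2 mutant and lower in the double mutant than in Idh2 mutant MEPs, at 26.4% and 35.3% in wild type GMPs and MEPs, 57.7% and 60.01% in the Idh2 mutant and 29.98% in the double mutant. The 1 that fell, an intron window of Ror2 named after its value was seen, was 10.3 points lower than in wild type.

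Others among the 12 largest called windows were these. A window downstream of Wnt9b was at 44.3% in wild type MEPs and 68.0% in the double mutant, one in a coding exon of Wnt8a at 51.5% in wild type MEPs, 59.2% in knockout MEPs and 23.2% in the double mutant, and one in an intron of Lgr6 at 26.6%, 3.56% and 31.2%; these last 2 were called only against knockout MEPs. An intron window of Tcf7l1 fell by 21.5 points between knockout MEPs and the double mutant, and was also called lower against Idh2 mutant MEPs. Coding windows of Wnt6 and Wnt8b, which had no measured promoter, went from 0.527% and 1.32% in wild type MEPs to 14.5% and 18.7%; they were chosen for mention after their values were seen. No member window differed between MEP and GMP, beside 0.28% of all windows.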

How the data were processed

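Reduced representation bisulfite libraries of 15 sorted samples in 7 groups were read as deposited tables without headers. By their layout and values, each line of the deposited tables gives the methylated and total read counts of 1 cytosine, made by the authors per library. Reads were aligned with BSMAP 2.74 to mm9, per the submitters' processing notes; for trimming, duplicate removal and bisulfite conversion, details were not given in the sources used here. PCR duplicates may therefore be counted, and reads are not independent molecules.

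From these counts, strands of a CpG were summed and CpGs with 10 or more reads in all 15 libraries were kept (20 and 5 as alternatives). CpGs within 1 kb of any GENCODE vM1 start site of a gene (mm9) were pooled by reads, so deep CpGs count for more, and genes with 3 or more such CpGs were fitted. The test for each promoter was a logistic model with quasi-binomial spread and 7 group means (8 residual degrees of freedom, dispersion squeezed towards a common value and not below 1, 2.22 prior degrees of freedom), with F tests and Benjamini-Hochberg adjustment over all 12074 promoters; a call needs a difference of 10 points or more besides an adjusted p under 0.05. Windows of 1 kb were fitted alike. The model was checked on simulated reads for the comparison of the double mutant with wild type MEPs alone. Libraries were drawn independently there, so deviations shared between libraries were not checked. Alternatives were limma 3.58.1 on log2 of methylated over unmethylated reads and on mean CpG levels, CpGs within 500 bp, the compared groups alone, a replicate block and leaving out each library. Software was R 4.3.3 and Python 3.11.15 with pandas 2.3.3, scipy 1.17.1 and numpy 2.4.6.

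Members, lists and alternatives were chosen with earlier results of these data known. Given in full are the members called in any comparison, up to 15 by the range of group means; also named are unmeasured members, those at 10% or more in wild type, the 3 with the most CpGs (Fzd10, Fzd1 and, tied with Ctnnb1, Ror2) and up to 12 called windows by largest difference. GMP and MEP libraries with the same genotype and number in their titles deviated from their group means together. Their correlation over promoters was 0.181 to 0.382 in 6 pairs. It was equal for the pairs of each genotype, so the 6 pairs are not independent. Other libraries sharing a number had a median of 0.00944 in 36 pairs, with a range of -0.152 to 0.207. These ranges overlap: knockout MEP with Idh2 mutant GMP reached 0.207, above the knockout pairs at 0.181.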

Additional observations from a re-analysis of the deposited data

How the results depend on the processing

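Of 37 differences of named members, 15 kept direction and call under every alternative, and 2 reversed, both for Lrp5 with each CpG weighted equally: 0.814 points in Idh2 mutant against wild type and -0.727 in double mutant against Idh2 mutant MEPs. Counts of called members moved as follows. With 20 reads per CpG, where 29 members were left, the double mutant comparisons with wild type, knockout and Idh2 mutant MEPs gave 5, 8 and 6, and any of 7 groups 7; with no minimum difference they gave 21, 23, 20 and 23; with the compared groups alone the first and the last of the 3 gave 6 and 5. Knockout and Idh2 mutant against wild type gave 3 and 2 with no minimum difference and 0 each with 20 reads, 500 bp, the compared groups alone, the replicate block, summed GMP and MEP reads (added after seeing the data) and both limma fits. Leaving out 1 library gave 10 to 12, 12 to 15, 9 to 12, 0 to 1 and 0 to 1 in these 5 comparisons and 12 to 15 for any of 7 groups; the knockout call was lost without any of 10 libraries and the Idh2 call without any of 12. The replicate block gave 10, 13 and 10 for the double mutant comparisons, and the block on title prefix, added after seeing the data, left MEP against GMP at 0. For windows, the double mutant comparisons gave 6 and 7 of the 21 windows left (wild type, knockout, against 65 otherwise) with 20 reads, 2, 3 and 2 with the compared groups alone, and 8 and 8 (wild type, Idh2 mutant) with limma on log2 values; leaving out 1 library gave 9 to 13, 6 to 14 (6 without knockout MEP replicate 1) and 9 to 13. Knockout windows gave 2 with 5 reads, 0 with 20 reads, the compared groups alone, the replicate block and both limma fits, and 0 to 1 without 1 library; Idh2 windows gave 0 with the compared groups alone and 2 to 4 without 1 library, and MEP against GMP 1 with no minimum difference. Other pathway genes gave 7 with 20 reads and 9 to 12 without 1 library. The member mean rose by 6.45 points with 20 reads against 8.29, and by 7.46 to 8.77 without 1 library. The cause of these changes was not tested, except that 20 reads leaves fewer CpGs.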
